A study of Mus musculus with 8 samples.

Results

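Arc, Etv4, AI506816, Cyp2c55 and Pdk4 were lower in Efhd2f/f Vil1cre/+ than in Efhd2f/f colonic intestinal epithelial cells (IECs) on day 7 of colitis induced by dextran sulfate sodium (DSS), a polymer that injures the colonic epithelium. They make up 5 of the 128 genes listed for that day, and 5 of the 11 that were lower. They were chosen by name after the values of this contrast were known. Of the 7 lower genes whose mean level over the 4 libraries reached 100 normalized counts, they had the 5 largest decreases. The comparison addresses what loss of Efhd2, a calcium-binding and actin-binding protein, does to the transcriptome of IECs under DSS.

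IECs were sequenced from Efhd2f/f Vil1cre/+ mice and Efhd2f/f mice, either untreated (day 0) or on day 7 of the DSS course, with 2 libraries in each of the 4 groups. By the study's methods, DSS was in the drinking water until the day before day 7, which counts from its start. The labels likewise place these samples after DSS. Mice were 8 to 10 weeks old by the same methods, and both genotypes carry loxP sites around exon 2 of Efhd2. Vil1cre drives recombination in the intestinal epithelium, so Efhd2f/f mice are controls without Cre and no group carries Cre without the floxed alleles. The cell fraction was shaken off the colon rather than sorted, so it can hold other cells. The labels do not say whether the libraries of a group came from separate mice. Libraries are named here by the numbers of the table columns: 65 and 71 are Efhd2f/f Vil1cre/+ and 67 and 68 are Efhd2f/f on day 7. Only genes past the study's own thresholds are listed, so the level of an unlisted gene is not known and neither is the depth of a library. Efhd2 was listed on day 0, at 556 and 713 normalized counts in Efhd2f/f Vil1cre/+ and 2663 and 2686 in Efhd2f/f, and was not listed on day 7, so the genotype labels of day 7 were not checked by the targeted gene.

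The 5 genes do different work. Arc encodes a cytoskeleton-associated protein best known as an immediate early gene of active neurons, and immediate early genes are transcribed rapidly after a stimulus without new protein synthesis. Etv4 encodes a transcription factor of the PEA3 group of the ETS family, which is induced through receptor tyrosine kinases and the ERK pathway. Cyp2c55 encodes a cytochrome P450 of the colon that oxidizes arachidonic acid. Pdk4 encodes a mitochondrial kinase that inhibits the pyruvate dehydrogenase complex and so spares glucose while fatty acids are burned; it is a classic target of the PPAR nuclear receptors. AI506816 is annotated as a noncoding transcript, and no function is given for it here.

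All 5 genes had both Efhd2f/f Vil1cre/+ libraries below both Efhd2f/f libraries, an arrangement that 8.59% of the 128 listed genes had, and the opposite arrangement held for 90.6%. Because these values chose the genes, they are given as a description with no test. With 2 libraries against 2, an exact two-sided permutation test cannot go below p = 0.333 for any single gene. The median log2 difference of the 5 genes, on the log2(normalized count + 1) scale and as Efhd2f/f Vil1cre/+ minus Efhd2f/f, was −2.74, against a median of 2.53 over all 128 listed genes.

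**Figure D1:**
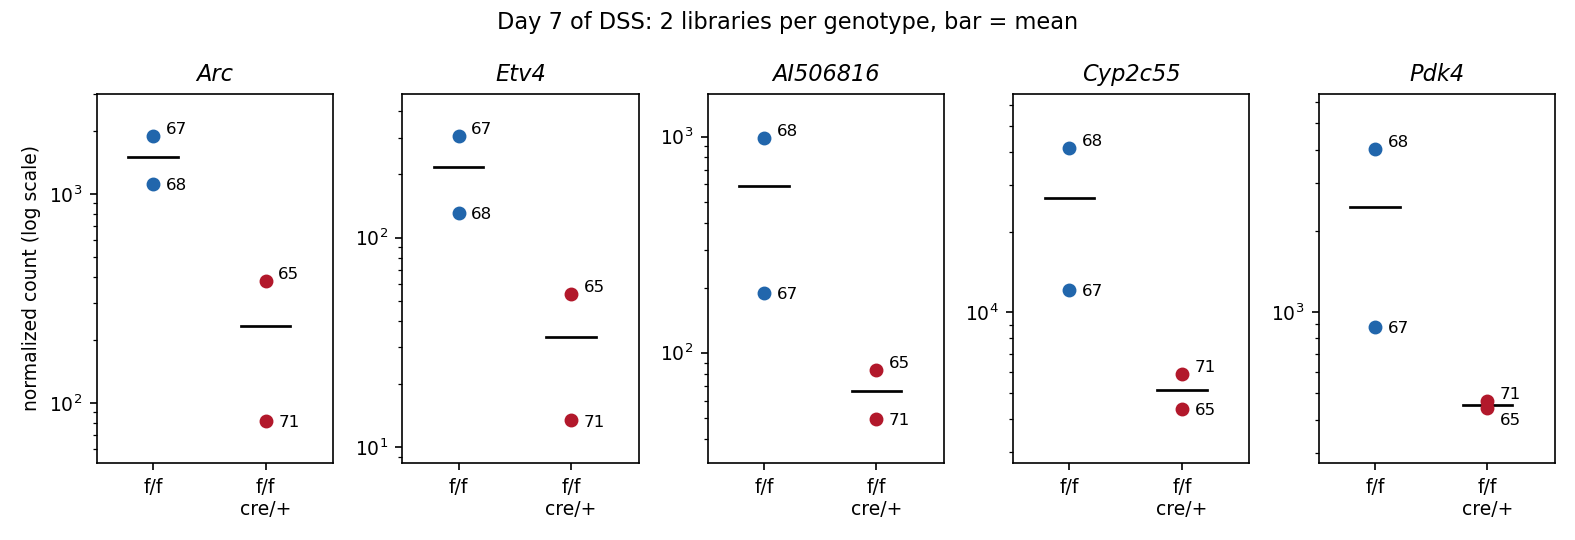
Normalized counts (log scale) of the 5 genes in the 4 day 7 libraries, each with its own axis; blue points are Efhd2f/f, red points Efhd2f/f Vil1cre/+, numbers name the library and bars are means of 2 libraries. In every panel the red points lie below the blue ones, and library 68 is far above 67 for AI506816, Cyp2c55 and Pdk4.

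Arc (ENSMUSG00000022602, GRCm38 chr15:74669083-74672570, minus strand, 3 exons in each of its 2 annotated transcripts) was measured at 382 normalized counts in library 65 and 82.2 in library 71, and at 1890 in library 67 and 1115 in library 68. The genotypes did not overlap, but library 65 lay well above 71. Means were 232 ± 212 in Efhd2f/f Vil1cre/+ and 1503 ± 548 in Efhd2f/f (SD, n = 2 each). The log2 difference was −3.02 with a standard error of 1.17, and the ratio of Efhd2f/f to Efhd2f/f Vil1cre/+ ran from 2.92 for the closest pair of libraries to 23 for the farthest. The log2 difference of Arc was −1.92 without library 71 and −4.13 without library 65.

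Etv4 (ENSMUSG00000017724, chr11:101769742-101785371, minus strand, 3 of its 12 annotated transcripts protein coding) gave 53.9 normalized counts in library 65 and 13.4 in 71, and 304 in 67 and 131 in 68. The libraries thus stood in the order seen for Arc. Means were 33.6 ± 28.6 in Efhd2f/f Vil1cre/+ and 218 ± 123 in Efhd2f/f (SD, n = 2 each), with a log2 difference of −2.84 (standard error 1.14). The ratio between single libraries ran from 2.43 to 22.7. The log2 difference of Etv4 was −1.87 without library 71 and −3.80 without library 65.

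AI506816 (ENSMUSG00000105987, chr5:23698296-23712667, minus strand, 5 annotated transcripts and none protein coding) had 83.4 normalized counts in library 65, 49.3 in 71, 190 in 67 and 988 in 68. The Efhd2f/f Vil1cre/+ libraries were close to each other, and the Efhd2f/f libraries lay far apart. Means were 66.4 ± 24.1 and 589 ± 565 (SD, n = 2 each), and the log2 difference was −2.74 (standard error 1.24). It was −1.55 without library 68 and −3.92 without library 67. The gene overlaps Mir3096, annotated as a snoRNA on the same strand, so reads there could be counted for either.

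Cyp2c55 (ENSMUSG00000025002, chr19:39007019-39042693, plus strand, 1 annotated transcript of 9 exons) had 4362 normalized counts in library 65, 5891 in 71, 12143 in 67 and 41314 in 68. Library 68 again stood above 67, while the Efhd2f/f Vil1cre/+ libraries differed by a ratio of 1.35. Means were 5126 ± 1081 in Efhd2f/f Vil1cre/+ and 26728 ± 20627 in Efhd2f/f (SD, n = 2 each), with a log2 difference of −2.14 (standard error 0.91). It was −1.26 without library 68 and −3.03 without library 67. Its paralog Cyp2c65 lies 18322 bases away, and reads shared with the Cyp2c family could be split in counting. The miRNA gene Gm23800 overlaps it on the opposite strand.

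Pdk4 (ENSMUSG00000019577, chr6:5483351-5496309, minus strand, 2 of its 3 annotated transcripts protein coding) had 441 normalized counts in library 65, 467 in 71, 880 in 67 and 4031 in 68. The Efhd2f/f Vil1cre/+ libraries differed by a ratio of only 1.06, and those of Efhd2f/f by 4.58. Means were 454 ± 18.2 in Efhd2f/f Vil1cre/+ and 2456 ± 2228 in Efhd2f/f (SD, n = 2 each). The log2 difference was −2.05 (standard error 1.10), with single pairs of libraries from 1.88 to 9.13 in ratio. The log2 difference of Pdk4 was −0.95 without library 68 and −3.15 without library 67.

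Per kb of gene length, Cyp2c55 was by far the most abundant of the 5 in both genotypes. In Efhd2f/f its level was 13398 ± 10339 normalized counts per kb (SD, n = 2), which ranked 1 of the 128 listed genes, and in Efhd2f/f Vil1cre/+ it was 2570 ± 542 and ranked 13. Pdk4 followed at 699 ± 635 in Efhd2f/f and Arc at 492 ± 179, and the libraries of those neighbours overlapped. AI506816 at 131 ± 126 and Etv4 at 70.1 ± 39.5 also overlapped. In Efhd2f/f Vil1cre/+ the order was the same, with Pdk4 at 129 ± 5.20, Arc at 76.0 ± 69.4, AI506816 at 14.8 ± 5.38 and Etv4 at 10.8 ± 9.22, and there only the libraries of AI506816 and Etv4 overlapped. Arc went from rank 15 per kb in Efhd2f/f to rank 101 in Efhd2f/f Vil1cre/+, and Pdk4 from rank 13 to rank 84. Most other listed genes were higher in Efhd2f/f Vil1cre/+, so these ranks hold only within the table.

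**Figure D2:**
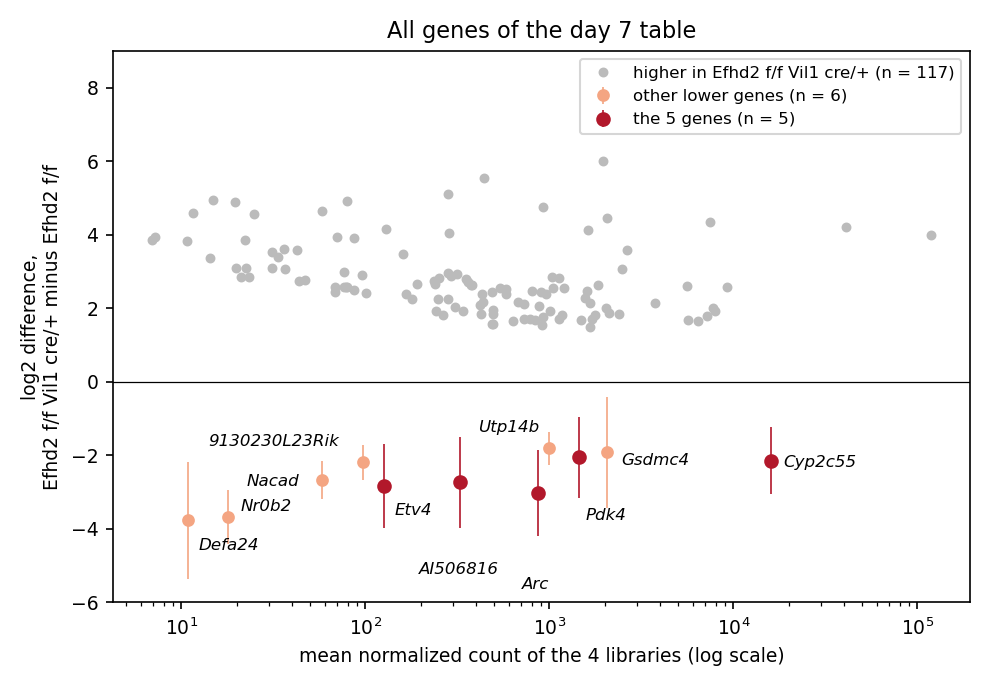
Log2 difference (Efhd2f/f Vil1cre/+ minus Efhd2f/f, of log2(normalized count + 1)) against the mean normalized count of the 4 day 7 libraries (log scale) for the 128 listed genes; bars on the 11 lower genes are standard errors (n = 2 libraries a group). The 5 genes in dark red lie between −3.02 and −2.05, below 117 genes that lie above 0.

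The 5 genes fell into a pair and a trio when their profiles over the 4 libraries were compared. The measure was the root mean square difference of log2(normalized count + 1) after each gene's mean was removed, so a small value means a like profile. It was 0.21 between Arc and Etv4 and 0.20 between Cyp2c55 and Pdk4. AI506816 was at 0.46 from Pdk4 and 0.56 from Cyp2c55. Between the pair and the trio it ran from 1.23 to 1.45. Over all 128 listed genes the nearest gene to Arc was Etv4 and the nearest to Etv4 was Arc, followed for both by 9130230L23Rik, at 0.88 and 0.90. Nacad was the second nearest gene to AI506816 (0.51) and to Cyp2c55 (0.48). A gene outside the 5 thus lay nearer to Cyp2c55 than AI506816 did, so the trio is a grouping among the 5 only. These likenesses rest on 4 libraries, whose depth and scaling are common to all genes, and on the genotype difference by which the genes were chosen. How often other pairs of the 128 listed genes lie this close was not computed, so values of 0.20 and 0.21 are not shown to be unusual.

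Within Efhd2f/f, the pair and the trio went in opposite directions. There the change from library 67 to 68 was −0.76 for Arc and −1.21 for Etv4 on the log2 scale, and 2.37 for AI506816, 1.77 for Cyp2c55 and 2.19 for Pdk4. In Efhd2f/f Vil1cre/+, the change from 65 to 71 was −2.20 for Arc and −1.93 for Etv4, against −0.75 for AI506816, 0.43 for Cyp2c55 and 0.08 for Pdk4, so AI506816 did not move with the other members of the trio there. Across the table library 68 was above 67 for 99 genes, below it for 23 and equal for 6, with a median log2 change of 0.88. A level in library 68 at least 3-fold that in 67 was found for 14 of the 128 listed genes, among them AI506816, Pdk4 and Cyp2c55 at ratios of 5.21, 4.58 and 3.40.

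**Figure D3:**
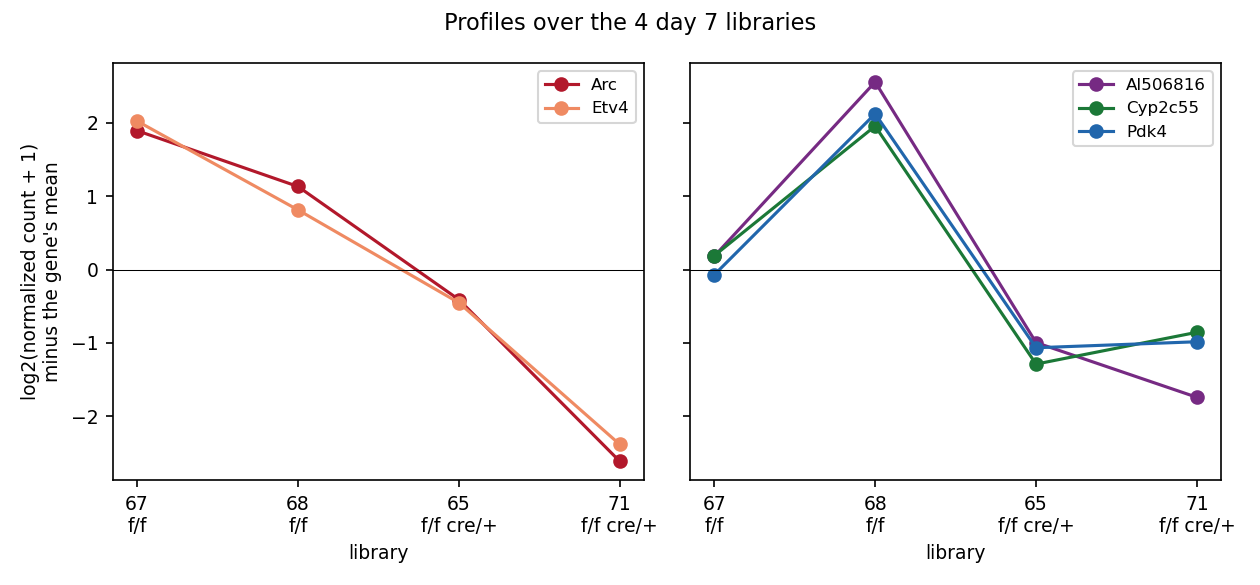
Log2(normalized count + 1) minus each gene's mean, for the 4 day 7 libraries in the order 67 and 68 (Efhd2f/f), 65 and 71 (Efhd2f/f Vil1cre/+). Arc and Etv4 (left) are highest in library 67 and lowest in 71, whereas AI506816, Cyp2c55 and Pdk4 (right) peak in library 68; the lines only join the points of a gene.

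Promoter sequences from RefSeq (GRCm38.p6) were matched for 3 of the 5 genes, the trio, and are shown for these; Arc and Etv4 are named only. The stretches end at the base before the annotated gene start and are chr5:23712668-23712917 on the minus strand for AI506816, chr19:39006769-39007018 on the plus strand for Cyp2c55 and chr6:5496310-5496528 on the minus strand for Pdk4. For Pdk4, 219 of the 250 bases searched are shown, since the rest lie inside the annotated gene. Capitals mark matches to the motifs searched.
AI506816: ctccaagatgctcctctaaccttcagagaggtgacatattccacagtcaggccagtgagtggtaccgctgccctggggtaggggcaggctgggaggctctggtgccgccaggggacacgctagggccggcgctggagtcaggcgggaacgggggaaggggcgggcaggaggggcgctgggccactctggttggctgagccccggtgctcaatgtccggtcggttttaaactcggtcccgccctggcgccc
Cyp2c55: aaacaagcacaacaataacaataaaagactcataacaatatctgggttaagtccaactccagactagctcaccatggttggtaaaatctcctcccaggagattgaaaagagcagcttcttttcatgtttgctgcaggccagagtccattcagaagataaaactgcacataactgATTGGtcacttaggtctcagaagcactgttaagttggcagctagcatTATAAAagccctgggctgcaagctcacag
Pdk4: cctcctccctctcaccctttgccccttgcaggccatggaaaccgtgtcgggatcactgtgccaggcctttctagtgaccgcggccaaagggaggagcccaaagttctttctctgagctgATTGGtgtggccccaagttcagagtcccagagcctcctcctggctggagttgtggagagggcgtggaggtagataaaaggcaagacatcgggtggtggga

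Motifs were searched on both strands in the 250 bases before the RefSeq start of each gene, after the sequences had been seen, and a match is a description of the letters only. The TATA box TATAAA was found in Cyp2c55 alone, 29 bases before the start, and in 12.4% of all 32851 RefSeq promoters. The CCAAT box CCAAT, read on the opposite strand as ATTGG, was found 76 bases before the start of Cyp2c55 and 131 bases before that of Pdk4, and in 33.8% of all promoters. None of the 3 held the nuclear receptor motif AGGTCA, the AP-1 site TGANTCA, the cAMP response element TGACGTCA or the ETS site CCGGAAGT, which were found in 14%, 6.75%, 1.55% and 2.88% of all promoters. The G+C content was 67.2% for AI506816, 42.4% for Cyp2c55 and 58.9% for Pdk4.

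The other 6 genes lower on day 7 also had no overlap between the genotypes, as had nearly all listed genes (8.59% in this direction and 90.6% in the other). Just outside the choice by size was Gsdmc4, a gasdermin, with a log2 difference of −1.91, beside Pdk4 just inside at −2.05. Gsdmc4 had 631 and 543 normalized counts in libraries 65 and 71, and 6256 and 777 in 67 and 68, so library 67 alone stood high. Utp14b had 552 and 337 against 1252 and 1828, with a log2 difference of −1.81. The remaining 4 had means under 100 normalized counts. Of these, 9130230L23Rik had 40.7 and 26.7 against 119 and 200 (log2 difference −2.19), and Nacad had 16.3 and 12.3 against 68.1 and 135 (−2.68). Nr0b2, which encodes a nuclear receptor that represses transcription in bile acid metabolism, had 1.02 and 2.05 against 18.8 and 49.7. Defa24, a defensin of Paneth cells, was listed at 0 in both Efhd2f/f Vil1cre/+ libraries and at 40.1 and 3.52 in Efhd2f/f.

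No other gene of the pathway lists of the 5 genes was in the day 7 table. In all, 5 lists were used, namely 34 immediate early genes, 19 PEA3 factors and ERK targets, 32 fatty acid oxidation and PPAR target genes, 14 genes of the pyruvate dehydrogenase complex and its regulators, and 60 cytochrome P450 and xenobiotic metabolism genes. Of the 153 genes on them other than the 5, 0 were in the day 7 table in either direction. The share of all tested genes that were listed is not known here, so this count has no background to be set against. The lists are not complete: Cyp11b1, a steroid hydroxylase of the cytochrome P450 family that is not on them and was named after its values were seen, was listed at 15.3 and 13.4 normalized counts in Efhd2f/f Vil1cre/+ and at 0 in both Efhd2f/f libraries, opposite to Cyp2c55. A list of 14 other ETS factors of the gut epithelium also had 0 genes there. Absence from the table says only that a gene did not pass both thresholds or was not given, and not that its level was the same in both genotypes.

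On day 0, without DSS, 0 of the 5 genes were listed among 309, by symbol or by gene identifier, so whether the genotypes differ in these genes without DSS cannot be read from the table. A difference between the days was therefore not tested. Of the 153 pathway genes, 12 were listed on day 0, with directions that varied by list. In that table both Efhd2f/f Vil1cre/+ libraries were above both Efhd2f/f libraries for 32% of genes and below for 67%, with a median log2 difference of −1.17.

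Of the 19 PEA3 and ERK target genes, 4 were in the day 0 table, each of them higher in Efhd2f/f Vil1cre/+. Dusp6, a phosphatase that switches ERK off, had 813 and 893 normalized counts against 413 and 398 in Efhd2f/f, a log2 difference of 1.07. Spry4, a feedback inhibitor of receptor tyrosine kinase signalling, had 45.6 and 46.4 against 19.6 and 13.1 (1.46). Phlda1 had 523 and 668 against 159 and 398 (1.23). Fosl1, a subunit of AP-1 that is also an immediate early gene, had 151 and 163 against 42.1 and 89.7 (1.34). Of the 34 immediate early genes, the other one listed was Nr4a1, an orphan nuclear receptor, at 2393 and 2736 against 550 and 1490 (1.5). Libraries did not overlap for any of these, as for nearly all genes listed on day 0 (32% above and 67% below).

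On day 0, 1 of 32 fatty acid oxidation and PPAR target genes was listed. Angptl4, an inhibitor of lipoprotein lipase, had 89.2 and 130 normalized counts in Efhd2f/f Vil1cre/+ and 47.1 and 28.4 in Efhd2f/f, a log2 difference of 1.53. The pyruvate dehydrogenase list had 0 genes in the day 0 table, and Pdk4 alone in that of day 7. Of the 60 cytochrome P450 and xenobiotic metabolism genes, 6 were listed, 5 of them lower in Efhd2f/f Vil1cre/+. The most abundant was Cyp2d34, at 2679 and 2642 against 8950 and 5621 (−1.41). Its relatives Cyp2d10 (−1.51), Cyp2d9 (−1.14) and Cyp2d26 (−1.09) were also lower, and reads could be split among these near-identical genes. Cyp27a1, the mitochondrial sterol 27-hydroxylase, had a log2 difference of −1.0. Adh1, an alcohol dehydrogenase, was higher, at 2601 and 2758 against 782 and 1538 (1.29).

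Markers of other cells that were listed on day 7 were higher in Efhd2f/f Vil1cre/+, as were 117 of the 128 listed genes. Of 20 neutrophil markers, 13 were listed, all higher in Efhd2f/f Vil1cre/+, with summed levels of 23194 and 69536 normalized counts in libraries 65 and 71 and 4643 and 7939 in 67 and 68. S100a9 was the largest part of the sum in every library, followed by S100a8. The largest log2 differences were those of Ngp (6.0), Ltf (5.53), Camp (4.63) and Lcn2 (3.59), of which Lcn2 is also made by epithelium. Library 71 carried much of these: without it the values were 2.80 for Ngp, 3.53 for Ltf and 1.89 for Camp, with standard errors of 3.20, 2.15 and 2.78 when all 4 libraries were used. Without library 65 they were 9.20, 7.54 and 7.37. Of 16 macrophage and monocyte markers, 3 were listed and higher, Spp1 (2.67), Fcgr3 (2.09) and Cd14 (1.93), with sums of 13472 and 13747 against 2620 and 4646. Cd14 made up most of that sum in every library, at 11964 and 13046 against 2458 and 4394. Spp1 was at 1.2 without library 65 and 4.14 without library 71. Of 7 red blood cell markers, 4 were listed and higher, Hba-a2 (2.75), Alas2 (2.39), Hbb-bs (2.17) and Hba-a1 (2.15), with the near-identical Hba genes sharing reads and with sums of 4139 and 3992 against 562 and 1344. Camp was at 0.0114 in library 68, below the level of a single read, and the other listed genes of these 3 lists were above 0 in every library.

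Arc and Etv4 stood in the reverse order of the neutrophil sum over the 4 libraries, highest in library 67, where the sum was lowest, and lowest in library 71, where it was highest. Of the 11 lower genes, 3 had this order of libraries, the third being Gsdmc4. The lower genes were listed for a difference opposite to that of the neutrophil markers, so only the order within each genotype was free to vary. Few orders are then possible, so the count of 3 by itself shows no link to the neutrophil sum, and a link was not tested. AI506816, Cyp2c55 and Pdk4 did not follow it, since they were highest in library 68. The part of the neutrophil, macrophage and red blood cell markers in the lower levels of the 5 genes was not tested, and in bulk libraries fewer cells of a type and less RNA per cell cannot be told apart.

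**Figure D4:**
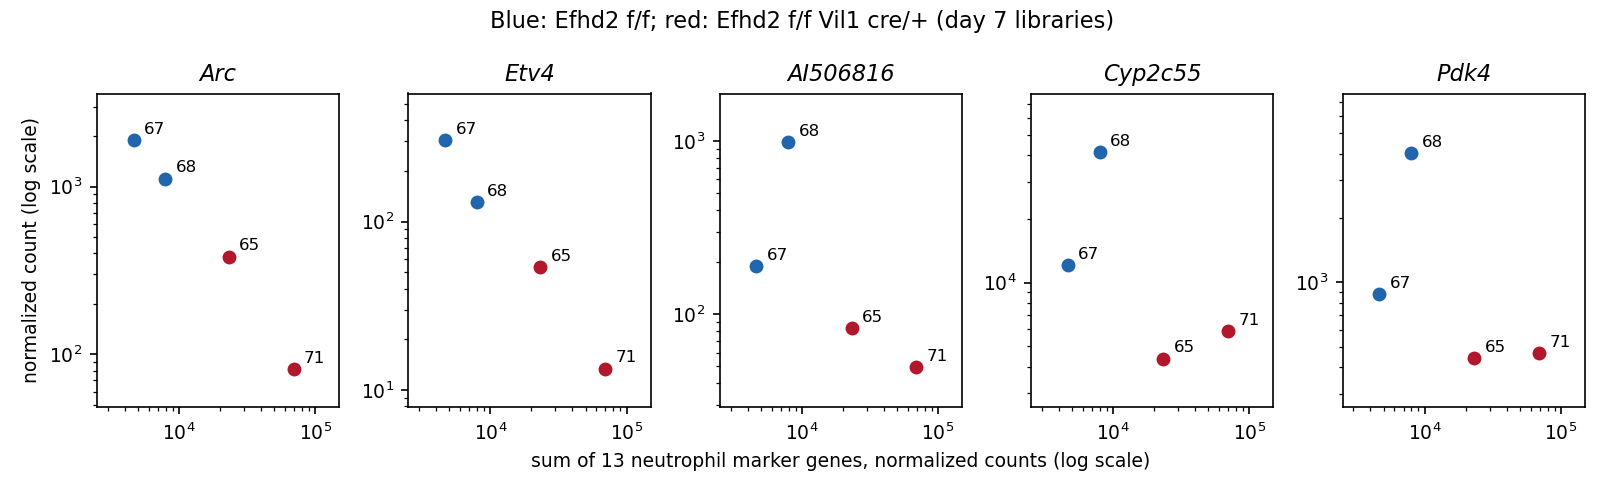
Normalized count of each of the 5 genes against the summed normalized count of the 13 listed neutrophil markers in the 4 day 7 libraries (both axes log; blue Efhd2f/f, red Efhd2f/f Vil1cre/+, numbers name the library). Arc and Etv4 fall at each step from 4643 in library 67 to 69536 in library 71, whereas AI506816, Cyp2c55 and Pdk4 are highest in library 68.

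Markers of the epithelium itself were hardly listed on day 7. Of 14 epithelial identity genes, 20 crypt base and Wnt target genes and 8 goblet cell markers, 0 were in the table. Here too the share of all tested genes that were listed is not known. Of 33 absorptive colonocyte genes, 2 were listed and both were higher in Efhd2f/f Vil1cre/+, Clca4b at 4.35 and Mal at 1.92 on the log2 scale (1.27 for Mal without library 67). None of 14 enteric neuron and glia markers was listed beside Arc, nor any of the 15 T and NK cell, 9 B and plasma cell or 14 fibroblast, muscle and endothelial markers on the lists. Some genes outside these lists, named after their values were seen, were listed, and like most listed genes they were higher in Efhd2f/f Vil1cre/+. Among them, 7 immunoglobulin genes were all higher, with sums of 480 and 867 normalized counts in libraries 65 and 71 and 64.7 and 64.3 in 67 and 68. The largest in level was Ighg2c, at 214 and 279 against 18.2 and 8.96 (log2 difference 4.15). Il17a (3.52) and Il17f (3.38), cytokines of T cells and innate lymphoid cells, were higher too, and the part of these cells in the lower levels of the 5 genes was not tested. Since unlisted genes carry no values here, the labelled cell type could not be checked against its defining markers.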

How the data were processed

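RNA of colonic IECs was sequenced, and per the submitters' processing notes reads were handled with CASAVA 1.8, fastp, HISAT2 2.0.5, featureCounts 1.5.0-p3 and DESeq2 1.20.0 on GRCm38; how each was set, and whether counting used strand, is not given in the sources used here. The authors deposited 1 table a day, and its per-library signal is a normalized count per gene that is not a whole number, so no count model was run. Values between 0.5 and 30 lay near multiples of a step fitted to each library for 15 of 15 in library 65 and 10 of 10 in 71. In libraries 67 and 68 this held for 24 of 37 and 27 of 30. Whether all values are counts scaled by a single factor per library is thus not known. The tables also hold the authors' deposited fold change (log2) and p-value columns; these were not used. Only genes that passed both of the authors' thresholds are listed: 1 for the absolute log2 change, 0.05 for the adjusted p-value.

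Values under 1e-06 were set to 0 (14 on day 7, 25 on day 0). Means, SDs and differences of log2(value + 1) were computed in Python 3.11.15 with pandas 2.3.3 and numpy 2.4.6; the scale understates changes of low genes. The standard error is that of a difference of 2 means of 2 libraries. Where replicates are technical, it covers that spread only. The calculation was tested on simulated data. Depth is unknown, so no counting interval was given. Coordinates were identical in GENCODE M21 for 126 of 128 day 7 genes.

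The 5 genes and all 17 gene lists were chosen with earlier results of these data known. Genes named are the 5, all others lower on day 7, the 2 nearest profiles of each, at most 4 of each list with the largest difference on day 7, all (up to 8) of the pathway lists on day 0, and Efhd2. Alternatives were pseudocounts of 0.1 and 10, libraries set to equal sums or medians over the listed genes, a minimum mean of 50, and each library left out.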

Additional observations from a re-analysis of the deposited data

Results flagged for a closer look

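Nr0b2 differed in direction between the days. Its log2 difference, Efhd2f/f Vil1cre/+ minus Efhd2f/f, was −3.67 (standard error 0.74) on day 7 after DSS and 2.97 (standard error 0.39) on day 0. On day 0 it had 63.9 and 110 normalized counts in the Efhd2f/f Vil1cre/+ libraries and 9.80 and 9.78 in the Efhd2f/f libraries, and on day 7 it had 1.02 and 2.05 against 18.8 and 49.7. The genotypes did not overlap on either day, as for nearly all listed genes. Nr0b2 was not alone in this: of the 9 genes listed on both days, 7 had opposite directions, 6 of them lower on day 0 and higher on day 7. The difference between the days was not tested, and the tables of the 2 days may have been normalized separately. Of the 11 genes lower on day 7, Defa24 was the other one listed on day 0, at 0 in both Efhd2f/f Vil1cre/+ libraries and at 0 and 86.9 in Efhd2f/f.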

How the results depend on the processing

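All 5 genes stayed lower in Efhd2f/f Vil1cre/+ under every alternative run, but this outcome was fixed in advance. Their libraries did not overlap between the genotypes, so neither another pseudocount nor leaving out 1 library could change the sign. Both scalings lower Efhd2f/f Vil1cre/+ relative to Efhd2f/f, so they could not change it either. Only the sizes of the differences were free to vary. With libraries set to equal sums over the listed genes, the log2 difference became −5.44 for Arc, −5.20 for Etv4, −5.14 for AI506816, −4.57 for Cyp2c55 and −4.47 for Pdk4, and 35 listed genes in place of 11 had both Efhd2f/f Vil1cre/+ libraries below both Efhd2f/f libraries. With equal medians the values were −5.15, −4.96, −4.86, −4.27 and −4.17 in the same order, with 25 genes. These scalings move the median of all listed genes by −2.41 and −2.12, by construction, since most listed genes were higher in Efhd2f/f Vil1cre/+. With 1 library left out in turn, the log2 difference ranged from −4.13 to −1.92 for Arc, −3.80 to −1.87 for Etv4, −3.92 to −1.55 for AI506816, −3.03 to −1.26 for Cyp2c55 and −3.15 to −0.95 for Pdk4, and the count of such genes from 11 to 12. The value of Arc and of Etv4 was smallest without library 71, and that of the other 3 without library 68. Pseudocounts of 0.1 and 10 moved each of the 5 by less than the spread between libraries. Leaving out single libraries was also run, as an alternative chosen after seeing the data, for the named marker genes of other lists. None changed direction, and none could, since their libraries did not overlap between the genotypes. No pairing of libraries between the genotypes is given, so no paired analysis was run. With 2 libraries a group and tables limited to listed genes, the error of each value is itself poorly known.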
